A study of Drosophila melanogaster with 2 samples.

Results

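The genes described here encode the translation initiation (eIF), elongation (eEF) and release (eRF) factors of Drosophila melanogaster and its aminoacyl-tRNA synthetases. They were chosen by symbol: names that start with eIF, eEF or eRF, and synthetases whose symbol ends in RS or, for the mitochondrial enzymes, in RS-m. The platform annotation held 76 such symbols, and 72 of them were measured on both arrays, among 8224 genes in all. Of these 72, 42 encode translation factors, 13 mitochondrial synthetases and 17 cytosolic synthetases. HisRS had no value on either array. The initiation factor genes eIF2Bbeta, eIF3f2 and eIF4G2 had only probes that also carry the symbol of another gene, and were left out.

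Synthetases load each amino acid onto its tRNA. Initiation factors then bring the small ribosomal subunit and the initiator tRNA to the start codon, elongation factors deliver the loaded tRNAs and move the ribosome along, and release factors end the chain at a stop codon. Most of these genes are used in every cell, and mitochondria translate their own few mRNAs with a separate set of nuclear-encoded synthetases, factors and ribosomal proteins.

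Total RNA of whole embryos was compared on 2 two-colour arrays with swapped dyes, called A and B. Hemocyte minus embryos were serpent (srp) mutants and hemocyte plus embryos were wild type, per the labels, which call the embryos of array A unwounded and leave that word out for array B. Serpent is a GATA transcription factor required for embryonic blood cells (hemocytes) and fat body, so these mutants are known to lack more than hemocytes. The sources used here do not give the allele, the age of the embryos or the number pooled, nor whether the arrays held separate RNA extracts, so p-values measure only the spread between these 2 arrays, which may be technical. In whole embryos, fewer cells of a type and less RNA per cell cannot be told apart.

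Each value is a log2 ratio of hemocyte minus over hemocyte plus embryos, centred on the median of its array, with SDs over the 2 arrays after ±. The labels do not name the dye in the numerator of the deposited ratios. Cy3 was taken as the numerator, which puts 18 of 20 measured plasmatocyte markers and 5 of 6 crystal cell markers below 0. With this likely reading a positive value means higher in hemocyte minus embryos, and every sign is opposite under the other reading, Cy5 over Cy3. The crystal cell genes PPO1 and PPO2, which encode prophenoloxidases, lay at -4.87 ± 0.08 and -3.71 ± 0.28. The reading was chosen with these markers known, so they are no independent check of it. The mutated gene, srp, lay at -0.15 for array A and -0.36 for array B, without passing the test (limma adjusted p = 0.221), and it is unknown whether its probe lies in the lesion, so it checks no label.

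Most of the translation machinery genes had mean ratios close to equality between hemocyte minus and hemocyte plus embryos, and the cap-binding factor gene eIF4E3 lay farthest from it. Over the 72 genes, the mean log2 ratio had a median of 0.04, against 0.00 over all genes, and 56 genes (77.8%) lay within 1.2-fold of equality, against 68.5% of all genes. In limma's moderated test with Benjamini-Hochberg adjustment over all 8224 genes (threshold 0.05), 1 of the 72 passed on the hemocyte minus side and 1 on the hemocyte plus side. The background over all genes was 8.18% on the hemocyte minus side and 5.27% on the hemocyte plus side. At an unadjusted p under 0.05 the counts were 7 and 4 of 72, against 15.3% and 12.2% of all genes.

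A missed threshold does not show equal expression, so the intervals are given here. For 59 of the 72 genes (81.9%), the whole 95% interval of limma lay within 1.5-fold of equality on either side, against 70.8% of all genes. The median distance from the mean to either end of the interval was 0.28 in log2 ratio. The 13 genes whose intervals reached past 1.5-fold were eIF4E3 and eIF5B, the translation factor genes eIF2D, eIF3f1, eIF4E5, eIF4E6 and eEF5, and the synthetase genes ValRS, GlyRS, LeuRS, AspRS-m, ValRS-m and PheRS-m.

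**Figure D1:**
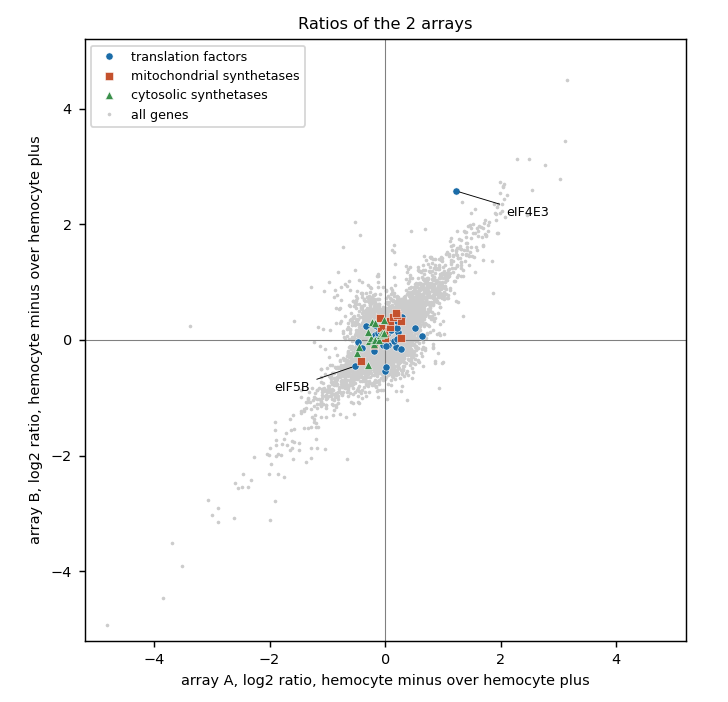
Log2 ratio of hemocyte minus over hemocyte plus embryos on array A (x axis) against array B (y axis), for 42 translation factor genes, 13 mitochondrial and 17 cytosolic synthetase genes and, in grey, all 8224 genes. The coloured points crowd around 0 and eIF4E3 is the single one far from them, at 1.23 for array A and 2.58 for array B.

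Among the cap-binding complex genes, eIF4E3 rose in hemocyte minus embryos. eIF4E proteins bind the cap at the 5′ end of mRNAs, and eIF4E3 is a paralog known from the testis. Its deposited values were -2.316 for array A and -0.171 for array B, on opposite sides of a size of 1, as a dye swap gives. The turned and centred log2 ratios were 1.23 and 2.58, which is 2.34-fold for array A and 5.97-fold for array B. Both arrays thus put it higher in hemocyte minus embryos, but by unequal amounts. The mean of 1.90 ± 0.95 (3.74-fold, 95% interval from 1.18 to 2.63) passed limma (adjusted p = 0.0106). Only 29 of the 8224 genes had a higher mean. eIF4E3 is among the 62 of the 72 genes that were measured by 1 probe. How far the signal of its probe lay above background is unknown. The arrays differed by 1.35 for this gene, a gap that 35 genes exceeded, and with robust moderation, which gives such genes a wider error, the call was lost (limma adjusted p = 0.136, and 0.00114 to 0.136 across all alternatives). It was the only one of the 72 that lay at least 1.5-fold on the hemocyte minus side on both arrays, where 4.79% of all genes did, and none did so on the hemocyte plus side (2.78% of all genes).

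No other eIF4E gene passed the test. Canonical eIF4E1, the general cap-binding subunit, lay at 0.01 ± 0.08, with -0.05 for array A and 0.06 for array B. eIF4EHP, which binds the cap without recruiting the ribosome and represses maternal mRNAs in the fly embryo, lay at -0.02 ± 0.10. The remaining eIF4E paralogs lay at 0.18 ± 0.05 (eIF4E4), 0.06 ± 0.31 (eIF4E7), 0.35 ± 0.39 (eIF4E6) and -0.27 ± 0.38 (eIF4E5). The intervals of eIF4E6 and eIF4E5 reached past 1.5-fold, and for both nearly all of the ratio came from a single array: eIF4E6 had 0.63 for array A and 0.08 for array B, and eIF4E5 had 0.00 for array A and -0.54 for array B. Whether the eIF4E3 probe also binds transcripts of these paralogs was not tested.

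The partners of eIF4E showed no call. The helicase gene eIF4A, whose product unwinds the start of the mRNA, lay at 0.27 ± 0.09, with 0.21 for array A and 0.34 for array B. Its 3 probes lay close together, between 0.25 and 0.29, and it did not pass over all genes (limma adjusted p = 0.182). The scaffold gene eIF4G1 lay at -0.22 ± 0.34, with 0.02 for array A and -0.46 for array B, so its arrays did not have the same sign. eIF4B (0.11 ± 0.13), which assists eIF4A, and eIF4H2 (-0.05 ± 0.40) did not pass either. Regulators of the cap and of the poly(A) tail had no call either: 0 of 10 measured passed limma on either side. At an unadjusted p under 0.05 there were 2, both on the hemocyte plus side (12.2% of all genes). The median of these regulators was -0.18. They ranged from NAT1, a relative of eIF4G, at -0.36 ± 0.14 to the poly(A)-binding protein gene pAbp at 0.24 ± 0.12.

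The second call was eIF5B, which fell in hemocyte minus embryos. eIF5B is the GTPase that joins the large ribosomal subunit to the small one at the end of initiation. Its ratio was -0.52 for array A and -0.45 for array B, a mean of -0.48 ± 0.05 (1.40-fold, 95% interval from -0.75 to -0.22, limma adjusted p = 0.0377). The arrays lay close together, but the size was modest: 435 genes had a lower mean. This gene too was measured by 1 probe. Tested against a 1.2-fold difference in place of equality, eIF5B did not pass (limma adjusted p = 0.363, and 0.0179 to 0.363 across all alternatives).

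**Figure D2:**
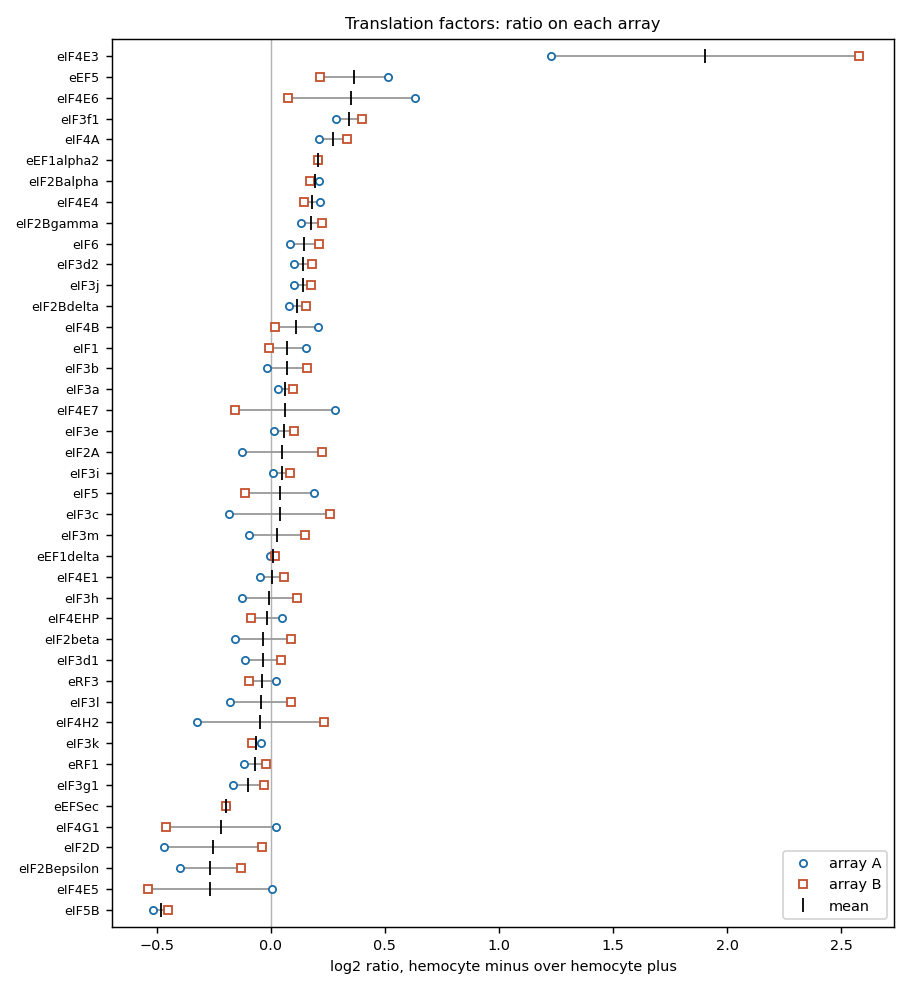
Log2 ratio of hemocyte minus over hemocyte plus embryos (x axis) of each of the 42 translation factor genes, ordered by mean, with array A as circles, array B as squares, the mean as a tick and a grey line joining the arrays. eIF4E3 stands apart at the top with its arrays at 1.23 and 2.58, and eIF5B is the lowest, with its arrays at -0.52 and -0.45.

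The other genes of start codon selection and subunit joining had no call. eIF1, which guards the choice of the start codon, lay at 0.07 ± 0.12, and eIF5, which makes eIF2 hydrolyse its GTP, at 0.04 ± 0.22. eIF6, which keeps free large subunits from joining early, lay at 0.15 ± 0.09, with 0.08 for array A and 0.21 for array B. eIF2beta, a subunit of the factor that carries the initiator tRNA, lay at -0.04 ± 0.17. eIF2A, linked to alternative initiation, lay at 0.05 ± 0.25. eIF2D, which acts in ribosome recycling and reinitiation, had -0.47 for array A and -0.04 for array B, so its mean of -0.25 ± 0.31 rested mostly on array A.

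eIF2B recharges eIF2 with GTP and is the step that stress kinases block. Of its 4 measured subunits, 3 were above 0 on both arrays: eIF2Balpha at 0.19 ± 0.03, eIF2Bgamma at 0.18 ± 0.06 and eIF2Bdelta at 0.11 ± 0.05. The catalytic subunit gene eIF2Bepsilon was below 0 on both arrays, with -0.40 for array A and -0.13 for array B (mean -0.27 ± 0.19). None of the 4 passed limma, and none had an unadjusted p under 0.05. The kinases that act on eIF2 and the stress response downstream were measured as a list of 6 genes. Of these 6, 0 passed limma, and 1 had an unadjusted p under 0.05, on the hemocyte plus side (12.2% of all genes). The kinase genes Gcn2 and PEK lay at 0.07 ± 0.09 and -0.21 ± 0.04. crc, which encodes the fly ATF4, lay at 0.06 ± 0.01. The lowest of the list was the pseudokinase gene trbl at -0.36 ± 0.06.

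The eIF3 complex, the largest initiation factor, holds the small subunit ready for the mRNA. Its 14 measured genes lay in a narrow band, with a median of 0.04, and 13 of them were within 1.2-fold of equality. The highest was eIF3f1, with 0.28 for array A and 0.40 for array B (mean 0.34 ± 0.08), without passing (limma adjusted p = 0.107). The lowest was eIF3g1 at -0.10 ± 0.10. The core subunit genes eIF3a (0.06 ± 0.05), eIF3b (0.07 ± 0.12) and eIF3c (0.04 ± 0.31) lay close to each other, although the arrays of eIF3c had opposite signs, with -0.18 for array A and 0.26 for array B. The paralogs eIF3d2 and eIF3d1 lay at 0.14 ± 0.05 and -0.04 ± 0.11. The remaining genes, eIF3j, eIF3e, eIF3i, eIF3m, eIF3h, eIF3l and eIF3k, lay between 0.14 (eIF3j) and -0.06 (eIF3k).

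Elongation and release genes had no call. eEF5 encodes the fly eIF5A, which helps the ribosome through difficult stretches such as runs of proline and carries the modified residue hypusine. It had 0.51 for array A and 0.22 for array B, and its mean of 0.36 ± 0.21 was the second highest of all 72 genes (limma adjusted p = 0.121). Its 2 probes lay at 0.33 and 0.40. nero and Dhps, whose products make hypusine, lay at 0.26 ± 0.08 and -0.10 ± 0.12 without passing. eEF1alpha2, which delivers loaded tRNAs to the ribosome, lay at 0.21 on both arrays. eEFSec, the elongation factor for selenocysteine, lay at -0.20 on both. eEF1delta, part of the exchange factor of eEF1alpha, lay at 0.01 ± 0.02. The stop codon reader eRF1 and its GTPase partner eRF3 lay at -0.07 ± 0.07 and -0.04 ± 0.08. Of 7 measured genes of ribosome recycling and rescue, a list that includes eIF2D, 1 passed limma on the hemocyte plus side, where 5.27% of all genes did. It was Ltn1, the ubiquitin ligase for stalled chains, at -0.47 ± 0.11 (limma adjusted p = 0.0436, and 0.0206 to 0.420 across all alternatives). The call of Ltn1 ended with the probe farthest from 0, without marked probes, with each probe on its own and against a 1.2-fold difference. Ltn1 has 1 probe, so its ratio stayed at -0.47 in each of these, and only the adjusted p changed. The highest of that list was Rack1, which encodes a protein of the small subunit, at 0.23 ± 0.39.

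Among the synthetases no gene passed limma on either side, of 30 measured. Over all genes 8.18% passed on the hemocyte minus side and 5.27% on the hemocyte plus side. At an unadjusted p under 0.05 there were 3 synthetase genes on each side, against 15.3% and 12.2% of all genes. Mitochondrial enzymes held 3 on the hemocyte minus side and 1 on the hemocyte plus side, and cytosolic enzymes 0 and 2. The medians of mitochondrial and cytosolic enzymes differed, but their ranges overlapped, from -0.39 to 0.33 for mitochondrial and from -0.37 to 0.16 for cytosolic enzymes. Mitochondrial synthetases had a median of 0.15, with 11 of 13 above 0, against 49.8% of all genes. On both arrays 7 of 13 were above 0, where 34.4% of all genes were. Cytosolic synthetases had a median of -0.08, with 6 of 17 above 0 and none above 0 on both arrays, while 7 of 17 were below 0 on both, where 34.2% of all genes were. No test of the difference between the classes was made, since genes are not replicates. Without centring, 10 of 13 mitochondrial and 6 of 17 cytosolic synthetases were above 0.

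**Figure D3:**
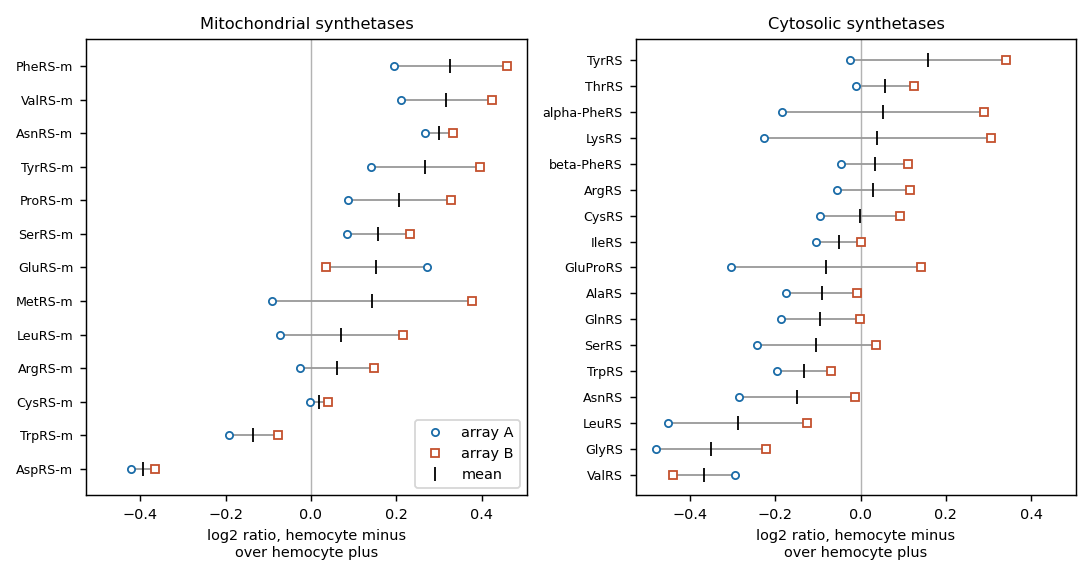
Log2 ratio of hemocyte minus over hemocyte plus embryos (x axes) of the 13 mitochondrial (left) and 17 cytosolic (right) synthetase genes, with array A as circles, array B as squares, the mean as a tick and a grey line joining the arrays. Mitochondrial means lie mostly right of 0 and cytosolic means mostly left of it, and array B lies right of array A for 28 of the 30 genes.

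The 3 highest mitochondrial synthetase genes load phenylalanine, valine and asparagine. PheRS-m had 0.19 for array A and 0.46 for array B (mean 0.33 ± 0.19, limma adjusted p = 0.149). ValRS-m had 0.21 for array A and 0.42 for array B (0.32 ± 0.15). AsnRS-m had 0.27 for array A and 0.33 for array B (0.30 ± 0.05, limma adjusted p = 0.143). All 3 were above 0 on both arrays and at an unadjusted p under 0.05, yet short of the adjusted threshold. The tyrosine enzyme gene TyrRS-m followed at 0.27 ± 0.18, with its 2 probes at 0.26 and 0.28.

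At the other end stood the aspartate enzyme gene AspRS-m, with -0.42 for array A and -0.37 for array B. Its mean of -0.39 ± 0.04 was the second lowest of the 72 genes and narrowly missed the threshold (limma adjusted p = 0.0705), and without centring it passed at -0.42 (limma adjusted p = 0.0413, and 0.0413 to 0.809 across all alternatives). TrpRS-m, for tryptophan, had -0.19 for array A and -0.08 for array B (-0.13 ± 0.08) and was the only other mitochondrial synthetase gene below 0. CysRS-m, for cysteine, came next, with 0.00 for array A and 0.04 for array B (0.02 ± 0.03). The remaining 6, ProRS-m (0.21 ± 0.17), SerRS-m, GluRS-m, MetRS-m, LeuRS-m and ArgRS-m (0.06 ± 0.12), lay in between. MetRS-m had the widest spread of the class, with -0.09 for array A and 0.38 for array B.

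Of the cytosolic enzymes, the genes for valine, glycine and leucine lay lowest. ValRS had -0.29 for array A and -0.44 for array B (mean -0.37 ± 0.10, limma adjusted p = 0.0946). GlyRS had -0.48 for array A and -0.22 for array B (-0.35 ± 0.18, limma adjusted p = 0.124). LeuRS had -0.45 for array A and -0.13 for array B (-0.29 ± 0.23). These 3 were below 0 on both arrays, and none passed. The highest were TyrRS, with -0.03 for array A and 0.34 for array B (0.16 ± 0.26), and ThrRS, with -0.01 for array A and 0.13 for array B (0.06 ± 0.10). alpha-PheRS followed, with -0.18 for array A and 0.29 for array B (0.05 ± 0.33). The arrays of each of these had opposite signs. The subunits of the cytosolic phenylalanine enzyme lay close together, with beta-PheRS at 0.03 ± 0.11. GluProRS, a fusion enzyme for glutamate and proline, lay at -0.08 ± 0.31. Between these came LysRS (0.04 ± 0.38), ArgRS, CysRS, IleRS, AlaRS, GlnRS, SerRS, TrpRS and AsnRS (-0.15 ± 0.19).

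For 11 amino acids both a mitochondrial and a cytosolic enzyme were measured, which gave 12 pairs, since the cytosolic phenylalanine enzyme has 2 subunits. GluProRS stands in both the glutamate and the proline pair, and PheRS-m in both phenylalanine pairs. AspRS-m, at -0.39, and MetRS-m, at 0.14, had no measured cytosolic partner and so stand in no pair. The mitochondrial gene had the higher mean in 11 of 12 pairs, and was higher on each array in 9 of 12. The gap was widest for valine, with ValRS-m at 0.32 and ValRS at -0.37, a difference of 0.68. Asparagine followed, with AsnRS-m at 0.30 and AsnRS at -0.15. Tryptophan and cysteine showed next to no gap: TrpRS-m and TrpRS both lay at -0.13, and CysRS-m and CysRS at 0.02 and 0.00. The arginine gap was also small, with ArgRS-m at 0.06 and ArgRS at 0.03, although ArgRS-m was higher on each array. The glutamate pair differed in order between the arrays, with GluRS-m at 0.27 and GluProRS at -0.30 for array A, and at 0.04 and 0.14 for array B.

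**Figure D4:**
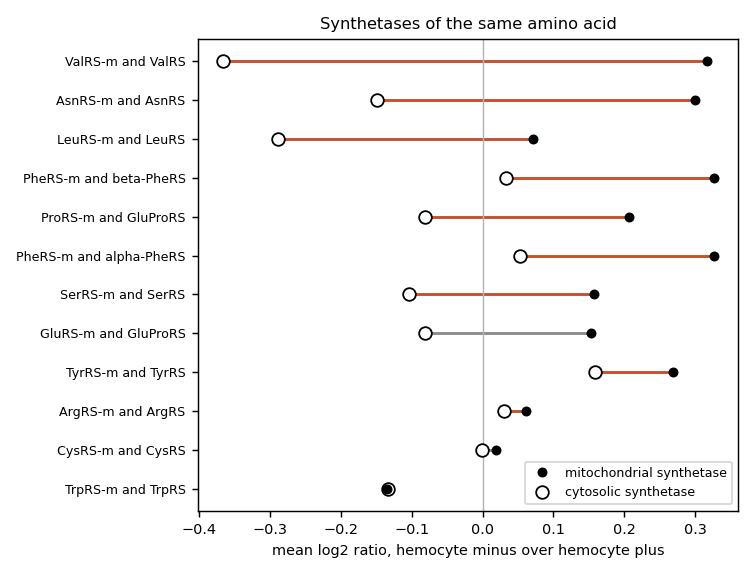
Mean log2 ratio of hemocyte minus over hemocyte plus embryos (x axis) of the mitochondrial (filled) and the cytosolic (open) synthetase of the same amino acid, a row for each of 12 pairs, ordered by their difference. Orange lines mark the 9 pairs with the mitochondrial gene higher on each array, and grey lines the tryptophan, cysteine and glutamate pairs.

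The arrays differed for the synthetases in a shared direction. The ratio was higher on array B than on array A for 28 of 30 synthetase genes (93.3%), against 54.5% of all genes. The same held for 29 of 42 translation factor genes, with 13 of the 14 eIF3 genes but only 4 of the 11 eIF4 genes among them. It also held for 71.0% of the cytosolic and 73.0% of the mitochondrial ribosomal protein genes. The median difference of array B minus array A was 0.19 for cytosolic and 0.18 for mitochondrial synthetases, against 0.03 over all genes. Cytosolic synthetases accordingly had a median of -0.19 for array A and 0.04 for array B, so that the sign of the class median depended on the array, while mitochondrial synthetases had medians of 0.08 and 0.23. The dyes are swapped between the arrays, so a dye effect and a difference between the RNA samples of the arrays cannot be told apart here. Pearson r between the arrays across the 72 genes was 0.653 and Spearman rho was 0.421, as a description over genes that share both arrays, against 0.746 and 0.561 over all genes. Opposite signs on the arrays were found for 32 of the 72 (44.4%), against 31.3% of all genes.

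Other genes of mitochondrial translation lay on the side of the mitochondrial synthetases. All 8 measured mitochondrial translation factor genes were above 0, where 49.8% of all genes were, with a median of 0.16. Of these 8, 0 passed limma, and 1 had an unadjusted p under 0.05, on the hemocyte minus side (15.3% of all genes). They ranged from mEFTs, the exchange factor of mitochondrial EF-Tu, at 0.09 ± 0.11 to the ribosome recycling factor gene mRRF1 at 0.32 ± 0.02. The 63 mitochondrial ribosomal protein genes had a median of 0.25, with 60 above 0, against 49.8% of all genes. Of the 63, 4 passed limma on the hemocyte minus side and none on the other, against 8.18% and 5.27% of all genes. At an unadjusted p under 0.05 the counts were 23 and 1 of 63, against 15.3% and 12.2% of all genes. The class median was 0.21 for array A and 0.32 for array B, again higher on array B. The 31 cytosolic ribosomal protein genes had a median of 0.18, with 29 above 0. Both ribosomal sets were picked by symbol and hold only genes with a value of their own on both arrays. Of the 31, 0 passed limma, with 5 at an unadjusted p under 0.05. All 5 lay on the hemocyte minus side, where 15.3% of all genes had such a p. The class median of the cytosolic ribosomal proteins was 0.13 for array A and 0.29 for array B, beside -0.19 and 0.04 for the cytosolic synthetases, so the signs of these medians differed on array A only.

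**Figure D5:**
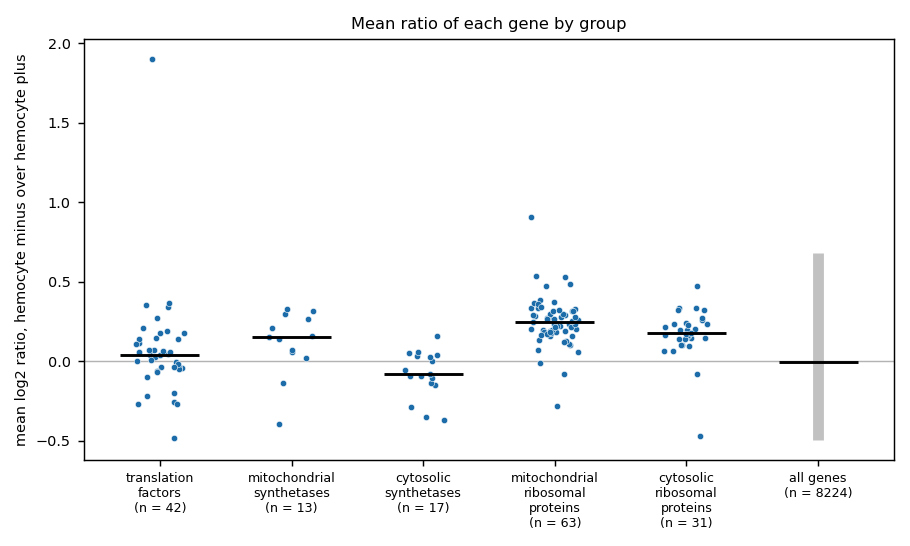
Mean log2 ratio of hemocyte minus over hemocyte plus embryos (y axis) of each gene, by group, with a black bar at the median. For all genes the grey bar spans the range from the 5th to the 95th percentile, -0.50 to 0.68, and both synthetase classes and all translation factors but eIF4E3 lie within it.

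Genes around the synthetases and upstream of translation showed few calls. The scaffold genes of the multi-synthetase complex, AIMP3, AIMP1 and AIMP2, lay at 0.25 ± 0.05, 0.09 ± 0.33 and 0.00 ± 0.20. Slimp, a mitochondrial relative of seryl-tRNA synthetase in insects, lay at 0.17 ± 0.07. With nero and Dhps these made up a list of 6, of which 0 passed limma and 0 had an unadjusted p under 0.05. Of 15 measured genes of tRNA processing and modification, 1 passed on the hemocyte minus side, where 8.18% of all genes did. It was Elp2, with 0.40 for array A and 0.68 for array B (0.54 ± 0.20, limma adjusted p = 0.0382, and 0.0209 to 0.285 across all alternatives). This call ended with each probe on its own and against a 1.2-fold difference. Elp2 has 1 probe, so its ratio stayed at 0.54 in both, and only the adjusted p changed. Elp2 is a subunit of the Elongator complex, which modifies the wobble base of tRNAs. Elp3, the catalytic subunit of that complex, was the lowest of the list at -0.25 ± 0.03 and did not pass. Its mean is over 2 probes that lay apart, and the one farthest from 0 had -0.42. Of 22 listed genes of the TOR pathway and Myc network, which sets the rate of translation, 15 were measured. Tor, raptor and Myc themselves were not among these 15. Of the 15, 1 passed on the hemocyte plus side, where 5.27% of all genes did. It was rictor, with -0.47 for array A and -0.83 for array B (-0.65 ± 0.26, limma adjusted p = 0.0266). Rictor belongs to TOR complex 2, and its call ended with the probe farthest from 0, without marked probes and against a 1.2-fold difference (limma adjusted p from 0.00843 to 0.145 over the alternatives). The highest of that list was gig, which encodes the TOR inhibitor TSC2, at 0.13 ± 0.50, and S6k, the kinase of a ribosomal protein downstream of TOR, lay at 0.03 ± 0.22.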

How the data were processed

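The authors deposited 1 value per probe for each of 2 dye-swapped arrays, all below 0. These deposited values, treated as a score, look like linear dye ratios with a minus sign. The sources used here give neither scanner, background correction, normalization nor numerator dye. Without channel intensities the signal over background is unknown, and the number of arrays limits the precision. Sizes were put on the log2 scale, array B was turned by its dye labels, medians over all 12144 probes were subtracted per array, and the probes of a gene were averaged. Probes with several symbols or none were left out. Symbols are those of the platform annotation, and all 72 genes were found in the RefSeq gene table of Release 6. Genes were tested against a log2 ratio of 0 with limma 3.58.1 (R 4.3.3, lmFit then eBayes, 1 residual and 5.01 prior degrees of freedom, Benjamini-Hochberg adjustment over 8224 genes). The fit was also run on simulated data with independent noise drawn from its own fitted spread. That run cannot check the test against shifts that many genes of an array share. Values per array are given for genes past the threshold and for the 3 highest and 3 lowest of the translation factors and of each synthetase class, and for others where the arrays matter. From other lists, genes past the threshold and the highest and lowest are named, with a few further genes chosen after their values were seen. The genes, the lists and the amino acid pairs were chosen with earlier results of these data known. Probes may also bind transcripts of related genes, which was not tested. No sequences were used, and the promoter motif search laid down at the start was not run.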

Additional observations from a re-analysis of the deposited data

How the results depend on the processing

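No paired analysis was possible because the arrays form a single group of dye-swapped ratios. Without centring, 2 of the 72 genes passed limma on the hemocyte plus side, 1 of them a synthetase gene (AspRS-m). With robust moderation 0 of the 72, and so 0 translation factor genes, passed on the hemocyte minus side (7 at an unadjusted p under 0.05), with eIF4E3 lost. Tested against a 1.2-fold difference, 336 genes passed on the hemocyte minus side and 199 on the hemocyte plus side over all genes, and 0 of the 72, hence 0 translation factor genes, on the hemocyte plus side (1 at an unadjusted p under 0.05), with eIF5B lost. This test asks for a larger difference by construction, and the cause of the other changes was not tested. With arrays scaled to equal spread, the probe farthest from 0, marked probes left out or each probe on its own, both calls remained and no other of the 72 was called. eIF4E3 and eIF5B each have 1 probe, so the settings on probes could not change their ratios. With a single array, which allows no test, 1 to 2 of the 72 lay at least 1.5-fold on the hemocyte minus side and 0 on the other, and their median ranged from -0.03 to 0.09.
Over all genes the calls on the hemocyte minus and the hemocyte plus side stayed within 1.5 times of 673 and 433 under the other 6 tested alternatives. Among the single genes named, 12 recomputed values changed side of the threshold, for the 6 genes whose adjusted p ranges are printed beside their values, and no called value changed its sign.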
